A study of Mus musculus with 6 samples.

Results

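The comparison described here sets 1 RNA-seq library of Twist1 conditional knockout (cKO) mice beside 1 library of wild-type mice, both taken 12 days after irradiation. Its members are the genes with at least 5 FPKM (reads scaled to the length of the gene and the size of the library) in the higher of both irradiated libraries, which held for 6348 of 30409 gene identifiers, or 20.9%. Of the members, 5439 reached 5 FPKM in both libraries, 293 in the cKO library alone and 616 in the wild-type library alone. The mice were of the C57BL/6 strain, and the label calls the cells LT-HSCs, long-term haematopoietic stem cells, sorted from bone marrow as Lineage–Sca1+cKit+CD34–Flk2–. A further pair of libraries, wild type and Twist1 cKO at steady state, carries the same strain, sort and genotype labels without irradiation and is used only to show the same genes in the absence of irradiation. ATAC-seq samples were not analysed here. The radiation dose, the Cre driver of the conditional allele, the deleted part of the gene, the control's own alleles and the number of animals behind a library are not given in the sources used here. Each group holds 1 library, so the differences below stand without replicates and without any test between the groups; the 95% intervals cover counting error only.

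Long-term haematopoietic stem cells are rare, mostly resting cells that renew themselves and give rise to every blood lineage. Irradiation kills most dividing blood cells, and surviving stem and progenitor cells then rebuild the marrow, with red cell and granulocyte precursors among the first to expand. Twist1 is a basic helix-loop-helix transcription factor that binds DNA at E-box motifs as a dimer with E proteins such as the one encoded by Tcf3, and Id proteins block such dimers.

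Twist1 itself (ENSMUSG00000035799, GRCm38.p6 chr12:33957671-33959831) was not a member: it had 5 reads and 0.140 FPKM in the irradiated wild-type library and 0 reads in the irradiated cKO library. With a floor of 3 reads (0.0792 FPKM there) it was at least 1.76-fold lower in cKO, but the counting interval of the ratio reached down to 0.970, so these counts are too small to check the genotype label. The libraries hold between 20349719 and 25100517 reads recovered in genes. Xist, made from the inactive X chromosome, had 1 FPKM in the irradiated wild-type and 0.573 FPKM in the irradiated cKO library but 0.0171 and 0.0155 FPKM at steady state, and the Y-linked gene Ddx3y had 0.0521 and 0.0164 FPKM after irradiation but 10.2 and 12.4 FPKM at steady state. Sex-linked transcripts thus matched between the genotypes within each condition and not between conditions, and the conditions were not compared with each other.

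The LT-HSC and erythroid markers of the irradiated libraries went against their cell type label. Of 8 LT-HSC markers, 0 reached 5 FPKM in either irradiated library, where their levels added up to 13.4 FPKM in wild type and 11.4 FPKM in cKO. At steady state 5 of the 8 reached it in each library, and the sums were 107 FPKM in wild type and 126 FPKM in cKO. Procr, the gene of the endothelial protein C receptor found on primitive stem cells, had 0.333 FPKM in the irradiated wild-type and 1.22 FPKM in the irradiated cKO library. The stem cell transcription factor gene Hlf had 0.0608 and 0.102 FPKM, wild type first. None of the 8 was at 0 in any library. Of 6 erythroid markers, 5 reached 5 FPKM in each steady-state library. Summed over all 6, levels there were 2508 FPKM in wild type and 1388 FPKM in cKO. After irradiation, in contrast to the LT-HSC markers, all 6 were members, with summed levels of 9530 FPKM in wild type and 12180 FPKM in cKO. Of the antigens of the sort, Ly6a, which encodes Sca1, had 89.1 FPKM in wild type and 256 FPKM in cKO (2.87-fold higher, 2.74 to 3.01). Kit had 8.52 FPKM in wild type and 4.98 FPKM in cKO, Cd34 had 0.155 and 0.322 FPKM, and Flt3, which encodes Flk2, had 0.519 and 1.32 FPKM. With Ly6a and Kit present and Cd34 and Flt3 low after irradiation, the antigens of the sort did not go against the label. At steady state, wild type first, Ly6a had 534 and 362 FPKM, Kit 20.1 and 27.6, Cd34 18.4 and 29.2 and Flt3 6.26 and 9.32. Because of the LT-HSC and erythroid markers, the samples are called the irradiated wild-type and the irradiated cKO library below. No value is given as one of stem cells. In bulk RNA, fewer cells of a type and less RNA of that type per cell cannot be told apart.

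**Figure D1:**
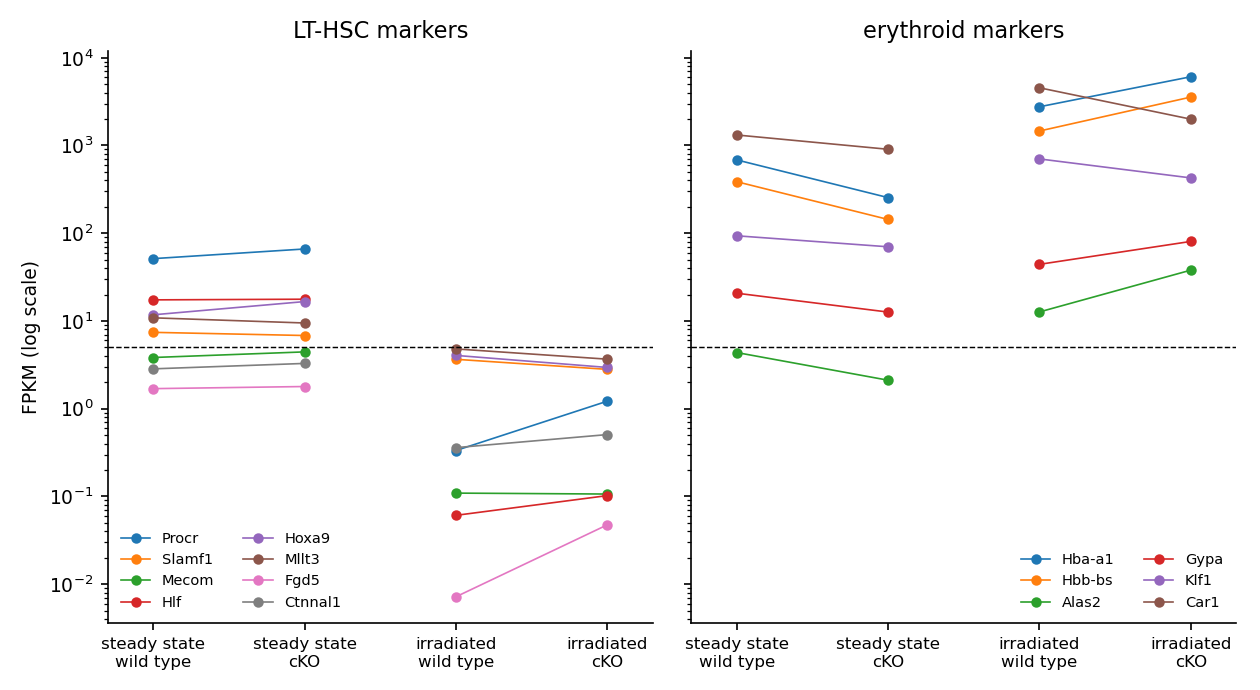
FPKM on a log scale of the 8 LT-HSC markers (left) and 6 erythroid markers (right) in the 4 RNA-seq libraries; each line joins the wild-type and the cKO library of a condition and the dashed line is at 5 FPKM. All LT-HSC markers lie under the dashed line in both irradiated libraries, and all erythroid markers lie above it there.

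The first question was how far, and in which direction, the irradiated libraries differed over all members. The median member was lower in the cKO library by a log2 difference of -0.45, taken on log2(FPKM + 1). Differences are therefore given as relative differences, the log2 difference of a gene (cKO minus wild type) less this median; folds are plain ratios of the deposited FPKM and still contain the shift. Relative differences were narrow for most members: the middle 50% lay between -0.13 and 0.17, and the central 95% between -0.38 and 2.04. The long side was the higher one. A gene is called higher or lower below where its relative difference reached 2-fold. By that rule 489 members (7.7%) were higher in the cKO library and 30 (0.473%) were lower, 519 (8.18%) in all. On the values as deposited the counts were 284 (4.47%) and 66 (1.04%). At 1.5-fold they were 681 (10.7%) and 62 (0.977%) on the relative scale.

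Members that entered through 1 library had to differ, so the counts were also taken over the 5439 members at 5 FPKM in both libraries, of which 235 (4.32%) were called higher and 7 (0.129%) called lower. Of the 489 higher members, 254 reached the minimum in the cKO library alone, and of the 30 lower members 23 reached it in the wild-type library alone. Around the minimum itself, the 35 members between 5 and 5.05 FPKM had a median relative difference of 0.13 (range -0.36 to 3.04), and the 28 genes between 4.95 and 5 FPKM had 0.15 (range -0.30 to 1.86).

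Sorted by kind, 5598 members were genes with an ordinary symbol, and of these 285 (5.09%) were called higher and 0 called lower. Immunoglobulin and T cell receptor gene segments made up 142 members, with 98 higher and 23 lower. The remaining 608 were non-coding, predicted or clone-named genes, with 106 higher and 7 lower. All 3 kinds thus contributed to the higher side, while 23 of the 30 lower calls were antigen receptor segments.

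**Figure D2:**
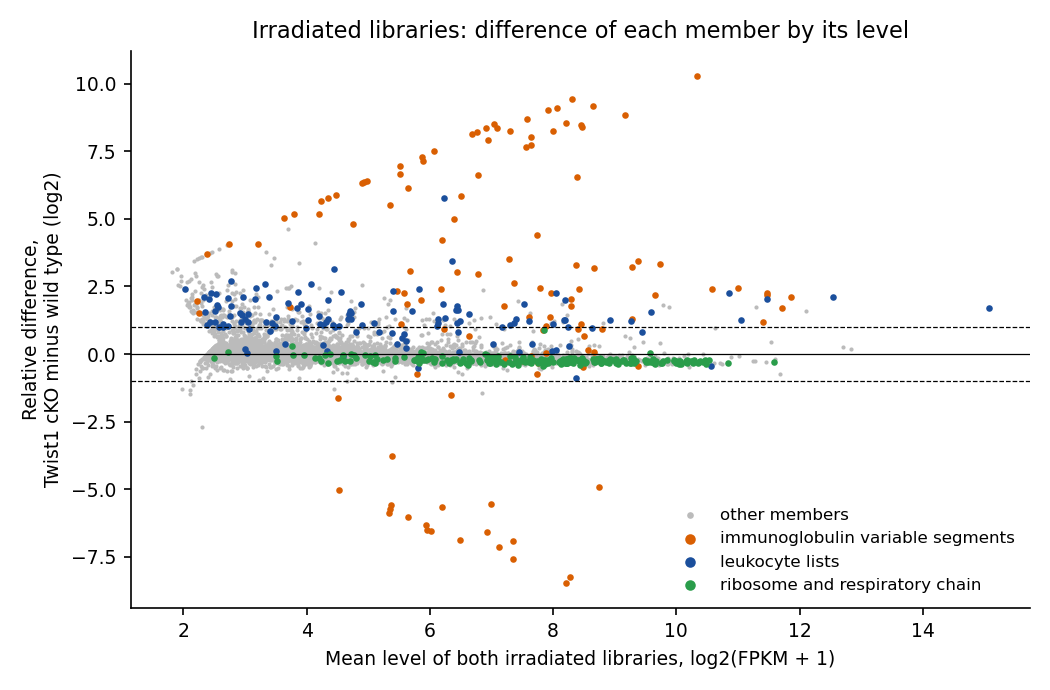
Relative difference (log2, cKO minus wild type) of each of the 6348 members against its mean level in the irradiated libraries; dashed lines mark 2-fold. Genes of the leukocyte lists (blue) lie mostly above the upper line, ribosome and respiratory chain genes (green) form a narrow band just under 0, and antibody variable segments (orange) spread from -8.45 to 10.28.

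Genes of mature blood cells made up 97 of the 285 ordinary genes called higher. In 12 lists of leukocyte genes, 97 of the 130 members were called higher (74.6%, beside 7.7% of all members) and 0 were called lower. Where only members at 5 FPKM in both libraries were counted, 66 of 98 were called higher (beside 4.32%). Of the 5468 ordinary members in no leukocyte list, 188 were called higher (3.44%), and their median relative difference was -0.01. The lists were composed with earlier results of these data known, so their direction is a description and not independent evidence.

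**Figure D3:**
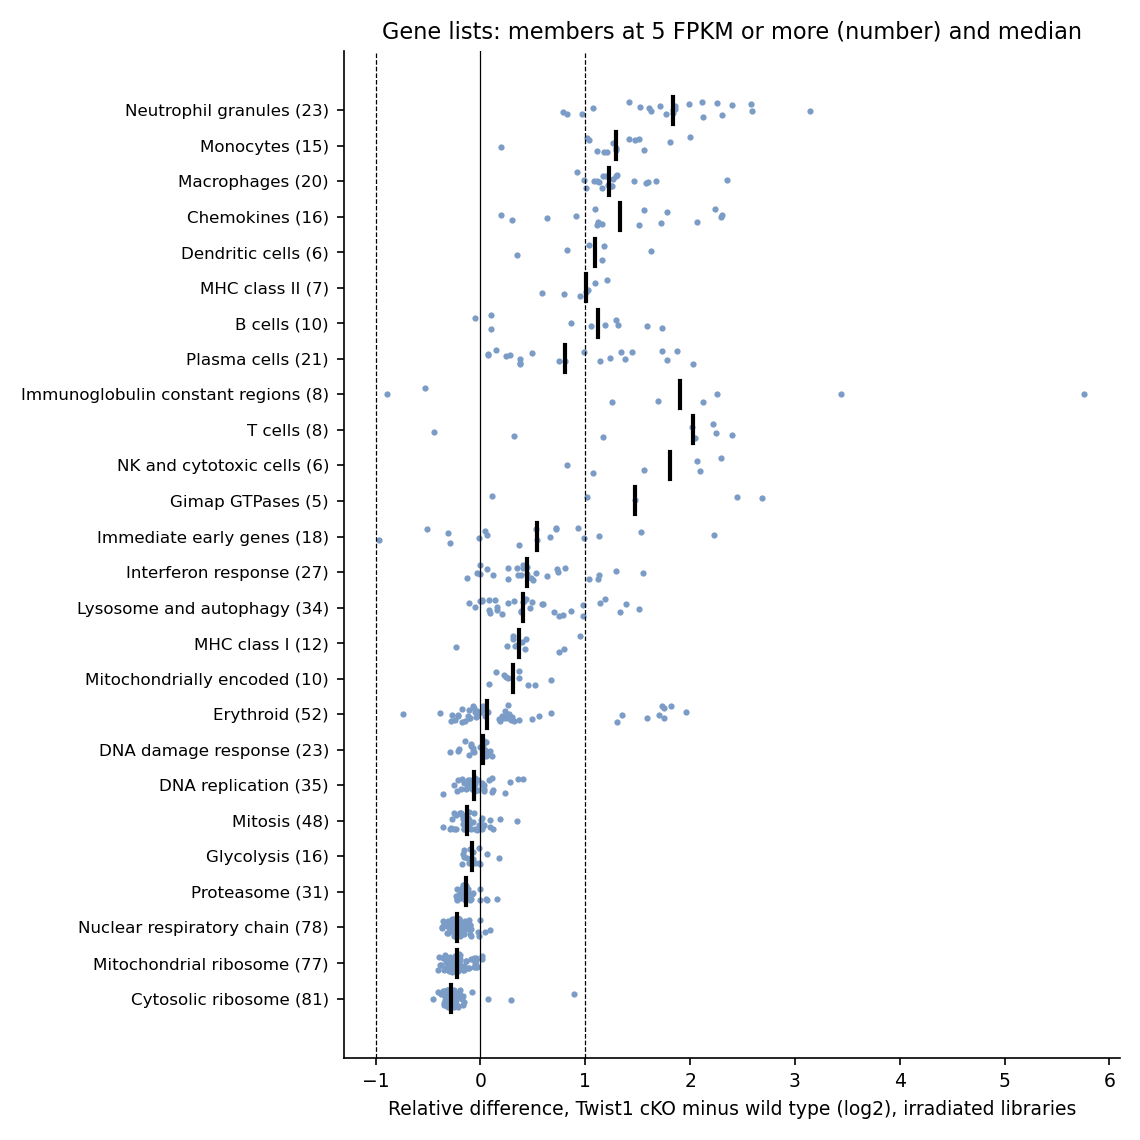
Relative differences (log2, cKO minus wild type) of the members of 26 gene lists; each point is a gene, the black bar is the list median, the number of members is in brackets and dashed lines mark 2-fold. Leukocyte lists sit to the right with medians from 0.81 to 2.03, and ribosome, respiratory chain, proteasome and mitosis lists sit close together just left of 0.

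Neutrophil granule genes lay above the median member at every stage of granule formation. Neutrophils fill their granules in order: proteases and myeloperoxidase first, in promyelocytes, then lactoferrin and antimicrobial peptides, and last the cytosolic and secreted proteins of the mature cell. Of 38 listed genes 23 were members, and 20 of the 23 were called higher (beside 7.7% of all members), with a median of 1.84. Of the 23, 6 were members through the cKO library alone. Called higher were 4 of 7 early members, 7 of 7 secondary and tertiary granule members and 9 of 9 late members. Summed over the list, levels were 719 FPKM in wild type and 1929 FPKM in cKO. The early genes had a median of 2.11 over 7 members, the secondary and tertiary granule genes 1.84 over 7 and the late genes 1.77 over 9, with 0 of the 23 members under 1.5-fold. Over members at 5 FPKM in both libraries these medians were 0.96, 1.84 and 1.71.

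The upstream sequences of 4 primary granule genes are printed because 3 of them stood among the 20 highest named members and because PU.1, a myeloid factor that recognises the letters GAGGAA, is a textbook regulator of such genes. Each is the 150 bases before the annotated start in RefSeq, GRCm38.p6, 5′ to 3′ on the gene's strand, with GAGGAA in capitals; Mpo is at chr11:87793634-87793783 (plus strand), Elane at chr10:79886162-79886311 (plus strand), Prtn3 at chr10:79879517-79879666 (plus strand) and Ctsg at chr14:56102575-56102724 (minus strand).
Mpo: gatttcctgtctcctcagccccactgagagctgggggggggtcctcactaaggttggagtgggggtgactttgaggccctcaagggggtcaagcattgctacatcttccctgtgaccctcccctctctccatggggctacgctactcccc
Elane: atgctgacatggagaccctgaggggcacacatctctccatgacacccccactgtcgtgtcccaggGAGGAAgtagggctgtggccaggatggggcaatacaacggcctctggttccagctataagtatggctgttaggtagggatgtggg
Prtn3: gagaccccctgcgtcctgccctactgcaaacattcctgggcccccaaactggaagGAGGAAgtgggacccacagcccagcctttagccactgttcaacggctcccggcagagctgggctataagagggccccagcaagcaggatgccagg
Ctsg: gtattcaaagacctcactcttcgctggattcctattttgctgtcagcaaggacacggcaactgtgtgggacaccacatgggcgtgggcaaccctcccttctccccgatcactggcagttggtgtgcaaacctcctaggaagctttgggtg
GAGGAA starts 85 bases before the start of Elane and 95 bases before that of Prtn3, both on chromosome 10, and no match on either strand was found in the printed bases of Mpo and Ctsg.

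Searched on both strands in the 250 bases before the start, GAGGAA was in 23.1% of all 27025 RefSeq promoters, 22.1% of the 4487 matched members, 34.1% of the 211 matched members that were called higher and 42.9% of the 21 matched neutrophil granule members. TTNNGCAA, the letters of a C/EBP site, the other main factor family of granulocytes, was in 9.55%, 8.02%, 15.2% and 33.3% of the same sets. The E-box CANNTG, the general motif of Twist1 and its relatives, was in 66.0%, 55.4%, 64.9% and 61.9%, and GATAAG, the letters of a GATA factor site, was in 6.6%, 4.44%, 6.16% and 0%. CATATG, a form of the E-box that Twist proteins bind well and that is contained in the CANNTG counts, was in 3.48% of all promoters, 1.29% of members and 4.74% of the higher members, 10 of 211. CATCTG, another such form, was in 14.5%, 9.32% and 11.8% of these sets. These shares describe letters in a window; whether a factor binds there was not measured in the files used here.

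Mpo, which encodes myeloperoxidase, had 2.73 FPKM in wild type and 15.4 FPKM in cKO. Elane, which encodes neutrophil elastase, had 22.3 and 88.9 FPKM, and Ctsg, which encodes cathepsin G, had 9.15 and 35.7 FPKM (3.91-fold higher in cKO, 3.35 to 4.58). Prtn3, which encodes proteinase 3, had 12.0 and 17.6 FPKM, a much smaller ratio of 1.47 (1.30 to 1.65). The cKO library was the higher one for all 4, and at steady state the same genes were slightly lower in the cKO library, with relative differences between -0.57 and -0.21.

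Among the later granule genes, Ltf, which encodes lactoferrin, had 7.26 FPKM in wild type and 20.9 FPKM in cKO. Camp, which encodes the antimicrobial peptide cathelicidin, had 40.2 and 107 FPKM, and Ngp, neutrophilic granule protein, had 101 and 266 FPKM. Retnlg, a secreted resistin-like protein of mature neutrophils, had 4.83 and 36.7 FPKM (7.6-fold higher, 5.86 to 9.99), the largest difference of the list. These later genes were also higher in the cKO library at steady state, where Retnlg had a relative difference of 1.80, Ltf 1.33 and Ngp 1.27.

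Macrophage genes followed. Macrophages of the marrow clear dying cells and recycle the iron of red cells. Of 24 listed genes 20 were members, and 18 of them were called higher (beside 7.7% of all members), with a median of 1.23. Of the 20, 3 entered through the cKO library alone, and those kept in both libraries had a median of 1.26. Summed over the list, levels were 1340 FPKM in wild type and 2336 FPKM in cKO. Marco, a scavenger receptor for bacteria and debris, had 16.8 FPKM in wild type and 65.4 FPKM in cKO (3.89-fold higher, 3.58 to 4.23). Adgre1, which encodes the F4/80 antigen, had 8.68 and 21.6 FPKM, and C1qb, a chain of complement C1q, had 352 and 616 FPKM. Hmox1, which breaks down haem, had 65.7 and 112 FPKM (1.71-fold higher, 1.64 to 1.78). The cKO library was the higher one for every member of this list, from a relative difference of 0.92 upwards.

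Monocyte genes gave 14 of 15 members called higher (beside 7.7% of all members), with a median of 1.29. Of the 15, 4 entered through the cKO library alone, and those kept in both libraries had a median of 1.20. Ly6c2, a surface antigen of inflammatory monocytes, had 9.31 FPKM in wild type and 29.2 FPKM in cKO, and Lyz2, which encodes lysozyme, had 485 and 1052 FPKM. The member not called was Cx3cr1, the fractalkine receptor gene, at 7.67 and 6.28 FPKM. Beside the same 7.7%, dendritic cell genes gave 4 of 6, and MHC class II genes, which present antigen to T cells, gave 4 of 7 with a median of 1 (log2). Of these 7, 1 entered through the cKO library alone. Cd74, the invariant chain, had 457 and 776 FPKM. MHC class I genes, which most cells carry, gave 0 of 12 with a median of 0.37, which was -0.08 on the values as deposited.

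T cell, NK cell and Gimap genes mostly entered through the cKO library alone, which fixed their direction, so their counts are given as a description. In the T cell list 6 of 8 members were called higher (beside 7.7% of all members), and all 6 reached 5 FPKM in cKO alone. The 2 kept in both libraries had a median of -0.06. Cd3g, a chain of the T cell receptor complex, had 1.6 FPKM in wild type and 7.89 FPKM in cKO, and Trbc1, a constant region of the receptor's beta chain, had 1.45 and 7.52 FPKM. Tcrg-C1, a constant region of the gamma chain, went the other way and was far more abundant, with 1969 and 1061 FPKM (1.86-fold lower in cKO, 1.83 to 1.89), while Trdc, of the delta chain, chosen after its values were seen, had 0.385 and 0.221 FPKM. Of 6 NK and cytotoxic cell members 4 entered through cKO alone, and the 2 kept in both libraries were Ccl5 at 5.32 and 21.7 FPKM and the granule gene Nkg7 at 75.6 and 98.2 FPKM. Of 5 members of the Gimap family, GTPases of lymphocyte survival, 4 entered through cKO alone, among them Gimap3 at 1.40 and 10.3 FPKM. Gimap9, kept in both, had 21.4 and 16.8 FPKM and a relative difference of 0.11. The 5 mature B cell members were all called higher (beside 7.7% of all members), and 4 of them were at 5 FPKM in both libraries. Among these was Cd79a, a signalling chain of the B cell receptor, at 25.4 and 57.2 FPKM. Of the surrogate light chain genes of early B cells, Vpreb1 had 11.7 and 9 FPKM and Igll1 had 8.05 and 11.1 FPKM, and neither was called higher. Vpreb3, another gene of the B cell list, had 13.4 and 25.1 FPKM and was called higher.

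Not all defining markers of these cells reached 5 FPKM. The B cell gene Ms4a1 (0.226 FPKM in wild type and 0.200 FPKM in cKO), the T cell genes Cd3d (1.09 and 4.48 FPKM) and Cd3e (0.314 and 1.25 FPKM) and the neutrophil antigen gene Ly6g (1.44 and 1.49 FPKM) were under it in both libraries. In the wild-type library 1 listed gene was at 0 in each of the neutrophil, dendritic cell, B cell and NK lists. In the cKO library 0 were at 0 in these lists. The part of cell composition in the differences was not tested.

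Antibody transcripts were the most abundant of the higher genes. Of 12 constant region genes 8 were members, 1 of them through the cKO library alone. Of the 8, 6 were called higher (median 1.91), beside 7.7% of all members. Summed over the list, levels were 26248 FPKM in wild type and 63592 FPKM in cKO. Igkc, the constant region of kappa light chains, had 20479 and 48437 FPKM (2.37-fold higher, 2.35 to 2.38), and Igha, that of the IgA heavy chain, had 2833 and 9050 FPKM. Ighm, of IgM, differed less, at 1541 and 2699 FPKM.

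The classes of IgG and lambda chains were uneven. Ighg2c had 2.69 FPKM in wild type and 146 FPKM in cKO, the largest fold among the genes named by size. Ighg2b, of another IgG class, had 73.3 FPKM in wild type and 36.6 FPKM in cKO, lower by a relative difference of -0.53. Among lambda genes Iglc1 had 828 and 2892 FPKM and Iglc3 had 17.3 and 144 FPKM, but Iglc2 had 473 and 186 FPKM (2.55-fold lower in cKO, 2.39 to 2.72). Antibody genes and segments have near-identical copies among which the authors' counting could have split reads, so single values of this family are uncertain.

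Plasma cells, which secrete antibody, share a secretory programme: Jchain, which joins IgA and IgM into multimers, had 1423 FPKM in wild type and 4264 FPKM in cKO, and Mzb1, a chaperone of antibody assembly, had 48.5 and 124 FPKM. Of the 21 members of this list 9 were called higher (beside 7.7% of all members). All 21 lay above the median member (beside 50% of all members), with a median of 0.81. Of the 21, 3 entered through the cKO library alone, and those kept in both libraries had a median of 0.62.

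**Figure D4:**
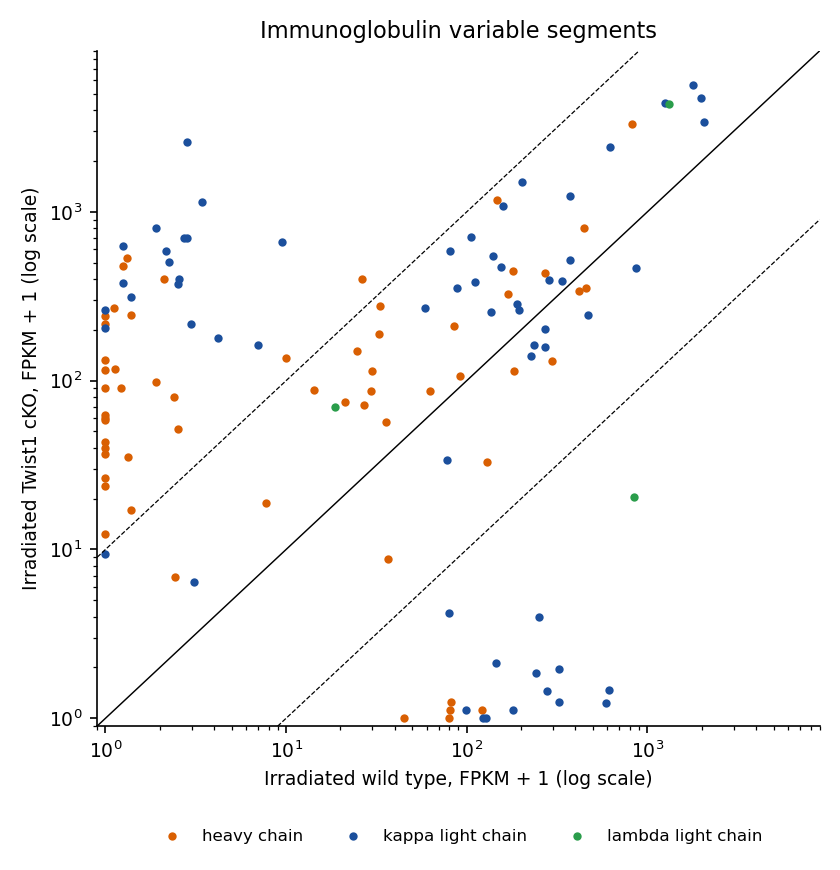
FPKM + 1 on log scales of the 123 immunoglobulin variable segments that were members, irradiated wild type against irradiated cKO; the solid line marks equal values and the dashed lines mark 10-fold. Points lie far from the solid line on both sides; on the relative scale 50 segments were at least 10-fold above and 19 at least 10-fold below wild type.

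Variable segments, which are joined anew in each B cell clone and code for the antigen-binding part, differed in both directions, and the highest and lowest relative differences of all members were theirs. Of 243 segments in the files 123 were members: 85 were called higher and 21 called lower in cKO (median 2.39), beside 7.7% and 0.473% of all members. These 21 made up most of the 30 lower calls of the whole comparison. At 10-fold on the relative scale there were 69, of which 50 were higher and 19 lower. The segment Igkv3-7 had 591 FPKM in wild type and 0.238 FPKM in cKO, a relative difference of -8.45, and Igkv8-28 had 1.83 and 2578 FPKM, a relative difference of 10.28. Only 60 segments reached 5 FPKM in both libraries.

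The 10 most abundant segments took 52.5% of the summed variable segment level in wild type and 56.3% in cKO, and 7 of the 10 were the same. Igkv14-126, highest in wild type, had 2052 FPKM there and 3386 FPKM in cKO. Igkv12-89, highest in cKO, had 5609 FPKM there and 1790 FPKM in wild type. The segment names here were chosen after their values were seen. The heavy chain segment Ighv1-81 was the most abundant of its chain in each library, at 819.5 and 3293 FPKM.

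Erythroid genes did not differ as 1 group. Of 64 listed genes 52 were members, with a median of 0.06 (-0.39 as deposited). Of the 52, 9 were called higher and 0 called lower, beside 7.7% and 0.473% of all members. The cKO library alone brought in 2 of the 52, and the wild-type library alone 1. All 4 adult haemoglobin members were called higher, with summed levels of 5258 FPKM in wild type and 12244 FPKM in cKO; Hba-a1, an alpha globin, had 2762 and 6074 FPKM, and Hbb-bs, a beta globin, had 1462 and 3563 FPKM. Globin genes too have near-identical copies that share reads. Alas2, whose product starts haem synthesis in erythroid cells, had 12.7 and 37.9 FPKM (3-fold higher, 2.75 to 3.27). Slc4a1, the band 3 anion exchanger, and Trim10, late genes of red cell maturation, had relative differences of 1.70 and 1.75.

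Genes of earlier erythroid stages did not share that shift. The 9 erythroid transcription and signalling members had a median of -0.12 with 0 called either way: Klf1, a master regulator of globin transcription, had 703 FPKM in wild type and 427 FPKM in cKO, and Gata1 had 179 and 118 FPKM, both close to the general shift. Car1, an early erythroid carbonic anhydrase, had 4546 and 1995 FPKM (2.28-fold lower in cKO, 2.26 to 2.30), with a relative difference of -0.74. The library with more globin transcript thus had less Car1 transcript.

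Genes of chemokines and their receptors were mostly higher in the cKO library. Of 40 such genes 16 were members, and 12 were called higher (beside 7.7% of all members), with a median of 1.34. Of the 16, 5 entered through the cKO library alone, which fixed their direction. Those kept in both libraries had a median of 1.12. Ccl4, which attracts monocytes and NK cells, had 8.14 FPKM in wild type and 32.0 FPKM in cKO (3.94-fold higher, 3.22 to 4.85), and Ccl5, a product of T and NK cells, had 5.32 and 21.7 FPKM. Ccl3 had 3.07 and 13 FPKM. Osm, which encodes the cytokine oncostatin M, was the 1 of 4 cytokine members below the median, at 32.1 and 13.7 FPKM, and Socs1, a feedback inhibitor of cytokine receptors, had 16.4 and 7.79 FPKM. Interferon-stimulated genes had a median of 0.44 with 5 of 27 called higher, beside 7.7% of all members. Of the 27, 3 entered through the cKO library alone. Lysosomal genes had a median of 0.41 with 5 of 34 called higher, beside the same 7.7%. Among these 5 was Psap, the prosaposin gene of lysosomal lipid breakdown, at 126 and 265 FPKM. Both medians were close to 0 and below it on the values as deposited; that of lysosomal genes was -0.04.

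Immediate early genes, which respond within minutes to growth factors, were divided. Klf2, a factor of quiescent lymphocytes and of endothelium, had 2.20 FPKM in wild type and 9.97 FPKM in cKO, and Fos, an AP-1 subunit, had 192 and 308 FPKM. Nr4a1, an orphan nuclear receptor of the same group, had 25.8 and 9.03 FPKM (2.86-fold lower in cKO, 2.58 to 3.17) and the lowest relative difference among the genes named by size (-0.97). Myc, the growth-promoting transcription factor gene, had 192 and 98.1 FPKM. Of 18 members 3 were called higher and 0 called lower, beside 7.7% of all members called higher. Cdkn1a, the cell cycle inhibitor gene that p53 controls, had 29.5 and 36.6 FPKM, and, beside the same 7.7%, 2 of 16 p53 target members were called higher, with a median of 0.17 that was -0.28 on the values as deposited.

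Some of the highest members were in none of the leukocyte lists. Ldlrad4, a membrane inhibitor of TGF-beta signalling, had 1.58 FPKM in wild type and 31.4 FPKM in cKO. Col13a1, a membrane collagen listed under bone and stroma, had 4.15 and 20.6 FPKM (4.97-fold higher, 4.48 to 5.53). It was 1 of 2 called higher among the 7 members of that list (beside 7.7% of all members), whose median was 0.09 with 0 called lower. The cKO library alone brought in 1 of these 7 and the wild-type library alone 2. The other gene called higher was Lpl, the lipoprotein lipase gene, at 10.2 and 17.9 FPKM. Cmtm5, a chemokine-like membrane protein, had 3.43 and 13.2 FPKM. Ldlrad4, Col13a1 and Cmtm5 entered through the cKO library alone, which fixed their direction. At steady state Col13a1 had 0.025 and 0.198 FPKM and Cmtm5 was listed at 0 in wild type with 0.319 FPKM in cKO, so neither reached 5 FPKM there.

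Genes of growth and respiration kept closely together and slightly under the median. The 78 nuclear respiratory chain members had a median of -0.22, and 76 of them lay at or below the median member (beside 50% of all members), with 0 at least 1.5-fold apart. The 77 mitochondrial ribosome members had -0.23 and the 81 cytosolic ribosome members -0.28. Ndufb9, of complex I, had 1412 FPKM in wild type and 892 FPKM in cKO. All members in the highest of 5 bins of mean level, from 73.2 FPKM upwards, had a median of -0.14. The part of level in these list medians was not tested. The 10 mitochondrially encoded members were all above the median member, at a median of 0.31: mt-Cytb, of complex III, had 699 and 701 FPKM. Nuclear and mitochondrially encoded subunits of the same enzymes thus lay on opposite sides of the median. On the values as deposited the mitochondrially encoded members had a median of -0.14, below 0 like the nuclear ones.

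Cell cycle lists stayed near 0 with little spread: 35 DNA replication members had a median of -0.06, 48 mitosis members -0.13 and 23 DNA damage response members 0.02, with 0 members at least 1.5-fold apart in all of these lists. Glycolysis had -0.08 over 16 members. Pcna, the replication clamp, had 259 FPKM in wild type and 181 FPKM in cKO, close to the general shift.

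Level and length moved with these values. With members split into 5 bins of mean level, the median relative difference was 0.11 in the lowest bin and -0.14 in the highest, and the shares called higher were 14.6%, 6.46%, 4.88%, 4.10% and 8.43% from the lowest bin to the highest. With ordinary genes split into 5 bins of gene-model length, 9.63% of the shortest and 1.88% of the longest were called higher. Olfactory receptor genes, which blood cells barely transcribe, served as a measure of background: of 310, 50% had reads in wild type and 74.5% in cKO, with mean levels of 0.104 and 0.223 FPKM, and 0 reached 5 FPKM. The library size implied by the authors' FPKM was 0.895 times the reads recovered in genes for the wild-type and 1.15 times for the cKO library. The part of level, length, background and scaling in the differences was not tested.

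The last question was whether the same genes differed by genotype without irradiation, for which the steady-state pair shares no library with the irradiated pair. At steady state 46 of 7157 genes at 5 FPKM were called higher in cKO (0.643%) and 195 called lower (2.72%), each taken relative to the steady-state median. Immunoglobulin variable segments made up 18 of these 46 and 90 of these 195. Of the 489 members higher after irradiation, 341 were also at 5 FPKM at steady state. There 14 of them were called higher as well, and 110 were called lower, with a median of -0.61. How many of the 14 and of the 110 were variable segments was not counted. Of the 30 lower members 27 could be followed, and 13 were called lower at steady state too while 3 were called higher.

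**Figure D5:**
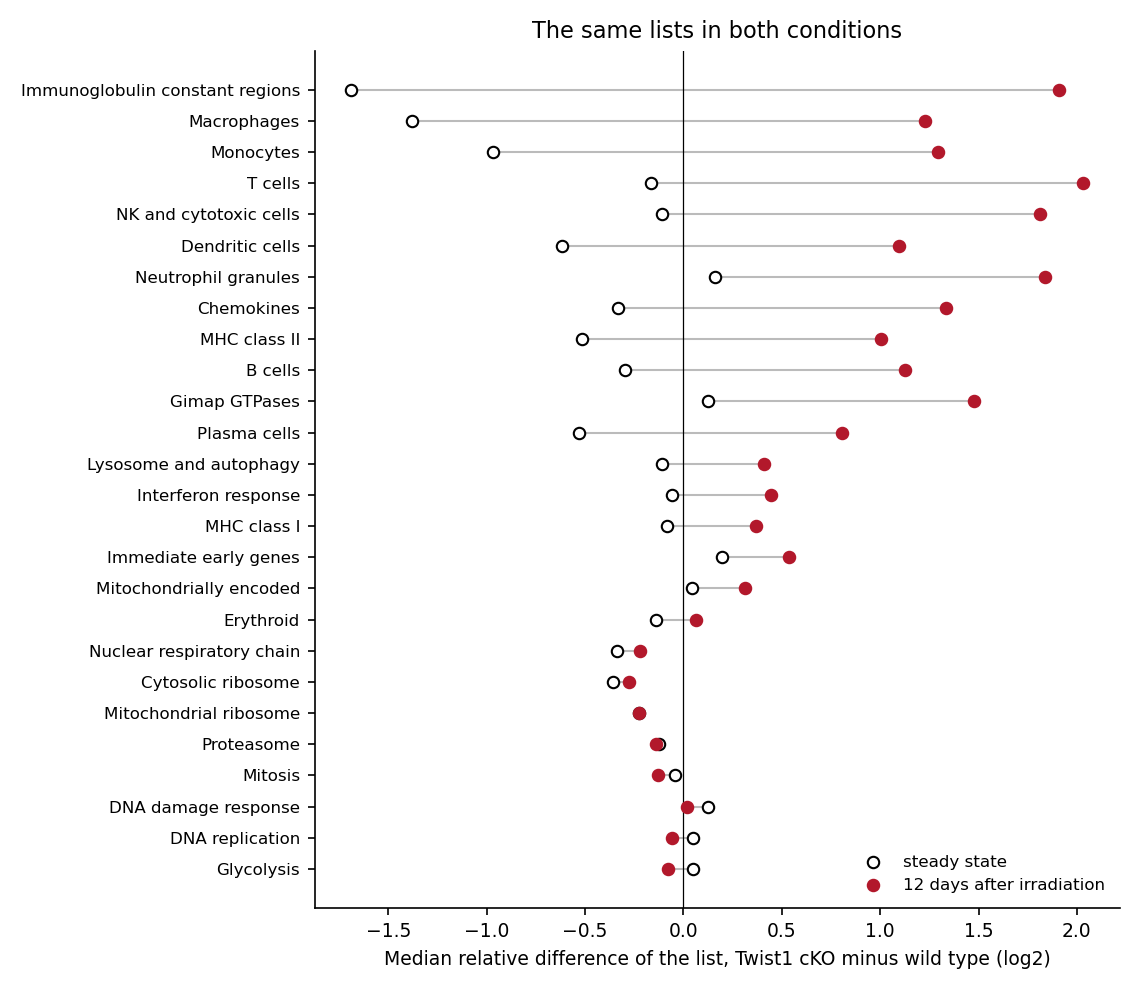
Median relative difference (log2, cKO minus wild type) of 26 gene lists at steady state (open circles) and 12 days after irradiation (filled circles), each over the members at 5 FPKM in that condition. The macrophage and immunoglobulin constant region lists lie left of 0 at steady state and right of 0 after irradiation. Ribosome and respiratory chain lists lie left of 0 in both conditions.

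Opposite signs were found in lists of several cell types. The macrophage list had a median of -1.38 at steady state and 1.23 after irradiation: C1qb had 599 FPKM in wild type and 183 FPKM in cKO at steady state, but 352 and 616 FPKM after irradiation. Immunoglobulin constant regions had -1.69 at steady state and 1.91 after irradiation, with Ighg2c at 245 and 42.3 FPKM at steady state. Haemoglobin had a median of -1.43 at steady state and 1.74 after irradiation, with Hba-a1 at 685 and 255 FPKM at steady state. Monocyte genes had -0.97 and 1.29. Neutrophil genes had 0.16 at steady state and 1.84 after irradiation. Ribosomal and respiratory chain genes had the same sign in both conditions, with -0.36 and -0.28 for the cytosolic ribosome and -0.34 and -0.22 for the nuclear respiratory chain, steady state first. With 1 library behind each corner, the difference between the conditions was not tested.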

How the data were processed

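RNA-seq values were used as deposited: FPKM per gene identifier, made by the authors, 1 table per library. The submitters' processing notes name mm10, HOMER, Bowtie, MACS2 2.1.0 and BWA 0.7.12-r1039; the tool that produced the RNA-seq tables was not given in the sources used here. Symbols were matched to 30231 of 30409 identifiers, and positions and promoters come from RefSeq, GRCm38.p6. Differences were taken on log2(FPKM + 1), cKO minus wild type, less their median over all members (-0.45). Genes entered at 5 FPKM in the higher library and were counted at 2-fold.

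Reads behind each value were recovered from each gene's ratios across libraries, with 1 constant per library, as the smallest whole numbers that fit them, for all 29934 genes with reads (1 through its implied length, since its counts were too large for the ratio search). Counts recovered this way can lack a common factor. The scale was set on mitochondrial genes, of which 12 of 13 then had their annotated length. Intervals of folds are exact conditional binomial intervals at 95%, and a floor is 3 reads. The procedure was tested on simulated data. Wild-type and cKO libraries recovered 24743747 and 20349719 reads after irradiation.

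The members and gene lists were chosen with earlier results of these data known. Named genes are the 20 highest and 20 lowest relative differences over genes reaching 10 FPKM, without non-coding, predicted and receptor segment symbols, up to 5 members of each list and role with the largest difference, the most abundant member of each, and a fixed set including Twist1, the sort antigens, Xist and Ddx3y; a few others are said to be chosen after their values were seen. Stem cell markers of the label check form a list of their own. A few genes that these rules name are not reported here. Alternatives were other centrings, pseudocounts, minimum levels, scalings and gene sets, and 1 rescaling added after the data were seen. Python 3.11.15, pandas 2.3.3 and SciPy 1.17.1 were used. The ATAC-seq samples were not analysed here.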

Additional observations from a re-analysis of the deposited data

Results flagged for a closer look

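Some differences between the genotypes had opposite signs after irradiation and at steady state; the difference between the conditions was not tested, since each combination of genotype and condition holds 1 library. Of the members followed at steady state, 110 were above wild type by 2-fold or more after irradiation and below it by 2-fold or more at steady state, and 3 were the reverse. Immunoglobulin variable segments were not set apart in these counts. Macrophage genes had a median relative difference of 1.23 after irradiation and -1.38 at steady state. Immunoglobulin constant regions had 1.91 and -1.69, and immunoglobulin variable segments had 2.39 and -1.12. Among single constant regions, Ighg2c had a relative difference of 5.76 after irradiation and -2.52 at steady state, and Iglc3 had 3.44 and -2.61. Xist and Ddx3y, given with the libraries, separate the irradiated from the steady-state pair, and whether the mice's sex has a part in the opposite signs was not tested.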

How the results depend on the processing

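No paired analysis was possible because each group holds 1 library, and no library could be left out. The counts of 489 higher and 30 lower members (94.2% higher) became 284 and 66 (81.1%) on the values as deposited, 323 higher with a pseudocount of 5, 1385 and 60 with a minimum of 1 FPKM, 227 higher (90.8%) with a minimum of 20 FPKM, and 286 and 0 (100%) without non-coding, predicted and receptor segment symbols, all relative to the median except the first. Under the other settings, centring on genes of like level, a pseudocount of 0.1, 5 FPKM in the mean, leaving out the 50 most abundant genes, upper quartile scaling and rescaling before the pseudocount, which was added after the data were seen, both counts were within 1.5 times those reported. Of 60 list medians, 16 were at least 2-fold. Of these 16, the T cell list changed sign under 1 setting, a minimum of 20 FPKM, where Tcrg-C1 alone was left (-0.37); the other 15 kept their sign under all 11 settings that gave a value. As deposited, 17 of the 60 medians changed sign, none of them among the 16, and 9 of the 16 were under 2-fold. Depth limits the genes that entered through the cKO library alone: the counting interval of Cd3g, with 38 and 198 reads, ran from 3.46 to 7.16.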

Other observations

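Of the 285 ordinary genes called higher in cKO, 97 were in a leukocyte list, 50 in another list and 138 in none of the lists. Eosinophil genes were higher as well: all 3 members were called higher, beside 7.7% of all members. Prg2, the major basic protein of eosinophil granules, had 52.3 FPKM in wild type and 97.7 FPKM in cKO. Ear2 had 53.1 and 85.6 FPKM, and the eotaxin receptor gene Ccr3 had 13.4 and 21.9 FPKM. Of the basophil and mast cell genes only Gata2 was a member, at 8.33 and 5.98 FPKM. Among transcription factors, Id2, an inhibitor of E proteins, had 58.6 and 108 FPKM, Irf8, a factor of monocytes and dendritic cells, had 6.67 and 11.7 FPKM, and Tcf3, an E protein and partner of Twist1, had 48.05 and 33.4 FPKM, close to the general shift (relative difference -0.06). Id1 had 9.73 and 5.15 FPKM, so both Id genes that were members differed in opposite directions. Rpl29, a ribosomal protein gene, stood apart from its list with 196 and 266 FPKM, and at steady state it had 80.3 and 18.2 FPKM.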
